A study of Homo sapiens with 8 samples.

Results

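The genes described here encode 40 heat shock proteins, chaperones and heat shock transcription factors, measured in A549 cells, an established human lung cancer line with epithelial character. The 40 were listed by name, with earlier results of these data known, and all 40 were found among the 60624 gene identifiers counted and all 40 passed the filter on low counts. Poly(A)+ RNA was sequenced from 4 groups of 2 libraries each: untreated cells, cells given indisulam, cells given SPHINX31, and cells given both compounds (the combination). Indisulam is a molecular glue that brings the splicing factor RBM39 to the DCAF15 ubiquitin ligase for degradation, and SPHINX31 inhibits SRPK1, a kinase of SR splicing proteins. The study also describes potential off-target activity of SPHINX31 and names CLK1 and SRSF2 as other reported targets. Which target lies behind a change with SPHINX31 was not tested here. The methods of the study give 0.5 µM indisulam, 5 µM SPHINX31 and 24 h of treatment, whereas the sample labels, untreated cells included, carry 1 common line of 2 µM indisulam for 18 h, so dose and time are not certain. The 2 libraries of a group were technical duplicates of 1 cell line, and the p-values below therefore measure the spread between such libraries and not between independent cultures.

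A chaperone binds a protein that is not yet, or no longer, folded and keeps it from aggregating. HSP70 proteins are handed their clients by J-domain proteins and are reset by nucleotide exchange factors of the HSP110 and BAG families. HSP90 then receives a subset of clients, among them kinases and steroid receptors, with co-chaperones such as STIP1, AHSA1 and PTGES3. CCT (also TRiC) is a ring of different subunits that folds actin and tubulin. Heat shock factor 1, HSF1, is held back by chaperones in unstressed cells and, once released, binds heat shock elements, inverted repeats of the unit nGAAn, in the promoters of chaperone genes. The list is wider than the cytosol, since HSPA9, TRAP1, DNAJA3, HSPD1 and HSPE1 act in mitochondria.

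Sequence just upstream of 5 genes that carry much of what follows is shown. They were picked from the genes detailed below because each holds a heat shock element match before its start. That all 5 hold a match was therefore fixed by the choice. A match of 3 units was required, except that 2 units were accepted in HSPA1A and HSPA1B. HSPB8 and DNAJA1, which hold 2-unit matches before the start, are not shown. The letters are from RefSeq promoters (GRCh38.p14), run 5′ to 3′ on the gene's own strand and end at the base before the RefSeq transcription start. GENCODE places the outermost start of HSPA8, CHORDC1 and HSP90AA1 farther upstream. HSPA8 lies at chr11:123062137-123062376 on the minus strand, CHORDC1 at chr11:90223050-90223169 on the minus strand, HSP90AA1 at chr14:102087045-102087164 on the minus strand, HSPA1A at chr6:31815423-31815542 on the plus strand and HSPA1B at chr6:31827618-31827737 on the plus strand. Capitals mark GAANNTTCNNGAA or its other strand TTCNNGAANNTTC, which is 3 units of a heat shock element, in the first 3 genes, and GAANNTTC, which is 2 units, in HSPA1A and HSPA1B.
HSPA8: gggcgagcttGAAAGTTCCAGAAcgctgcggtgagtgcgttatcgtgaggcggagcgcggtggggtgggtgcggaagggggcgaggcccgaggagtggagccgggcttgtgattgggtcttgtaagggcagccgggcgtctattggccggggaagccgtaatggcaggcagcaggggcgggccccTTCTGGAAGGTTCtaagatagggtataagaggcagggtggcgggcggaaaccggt
CHORDC1: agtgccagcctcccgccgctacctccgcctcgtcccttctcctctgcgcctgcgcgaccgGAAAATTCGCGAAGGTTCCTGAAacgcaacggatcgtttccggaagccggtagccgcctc
HSP90AA1: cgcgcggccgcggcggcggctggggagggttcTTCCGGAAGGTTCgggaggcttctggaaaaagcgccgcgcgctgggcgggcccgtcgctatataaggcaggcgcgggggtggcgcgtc
HSPA1A: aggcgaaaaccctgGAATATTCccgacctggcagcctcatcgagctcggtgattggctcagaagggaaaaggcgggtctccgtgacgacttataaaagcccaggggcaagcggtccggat
HSPA1B: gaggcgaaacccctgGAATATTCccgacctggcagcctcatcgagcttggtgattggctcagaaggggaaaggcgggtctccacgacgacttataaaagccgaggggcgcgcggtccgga

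The windows searched ran from 250 bases before to 50 bases after each start and were searched on both strands, so a 3-unit match also holds a 2-unit match. Of the 40 genes, 36 had a RefSeq promoter, some more than 1, for 50 windows. HSPA14, CCT6A, ST13 and HSF1 were not matched. The 3-unit motif was found in 7 of the 36 genes (19.4%), against 0.608% of all 27305 genes with a promoter. The 7 were HSPA8, CHORDC1, HSP90AA1, HSP90AB1, HSPD1, DNAJA1 and DNAJB6. HSPA8 held 2 matches, from -230 to -218 and from -55 to -43, and CHORDC1 held 3 that overlapped between -60 and -38. The 2-unit motif GAANNTTC was found in 14 of the 36 genes (38.9%), against 8.21% of all genes. In HSPA1A and HSPA1B it was the same 8 letters at almost the same distance from the start, and these promoters had 235 of 249 bases identical (94.4%). A match of letters is a description of the sequence and was not tested as a binding site.

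The 8 libraries held between 51727369 and 63186989 reads counted to genes (median 57337791). The epithelial markers KRT7, KRT8, KRT18, KRT19, EPCAM and CDH1 were all above 1 CPM (counts scaled to library size) in all libraries, summing to between 8640 and 9842 CPM. Of 6 markers of alveolar type II cells 1 (ABCA3) reached 1 CPM in all libraries, as did 1 of 5 for immune cells (CD14), 1 of 5 for fibroblasts (COL1A1) and 1 of 4 for endothelial cells (PECAM1), and these last 3 lists summed to at most 9.65, 5.01 and 2.60 CPM in any library. Values below are CPM after TMM normalisation, in the order library 1 and library 2. A gene is called when its adjusted p is under 0.05 by the quasi-likelihood test of edgeR, fitted to 18661 genes with Benjamini-Hochberg adjustment over all of them. Log2 fold changes come from that fit and are differences on the log2 scale, not levels. In bulk RNA, fewer cells of a kind and less RNA per cell cannot be told apart.

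The genes spanned a wide range of levels. Per kilobase of transcript, HSP90AB1 (649 CPM per kb), HSP90AA1 (536) and HSPA8 (469), the constitutive and inducible cytosolic HSP90 and the constitutive cytosolic HSP70, stood highest in untreated cells, in that order with each of 3 lengths tried (longest transcript, as printed, union of exons and canonical transcript). The untreated libraries of these 3 genes did not overlap with each other. With the union of exons, however, HSPA8 (222.9) was hardly above the fourth gene, PTGES3 (221.6). The CCT subunits lay between 135 (TCP1) and 249.6 (CCT3) with the longest transcript, with mitochondrial HSPD1 (205) among them and the HSP90 co-chaperone PTGES3 (256) above them. With the other 2 lengths CCT7, not CCT3, was the highest subunit. The stress-inducible HSPA1A and HSPA1B were low, at 11.6 and 13.1 CPM per kb. Reads that match both of these genes equally may be missing from their counts, so their levels may be too low. HSPA2, best known from the testis, was the lowest at 0.991, also with each length. Between these ends the order moved with the length used and is not given.

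**Figure D1:**
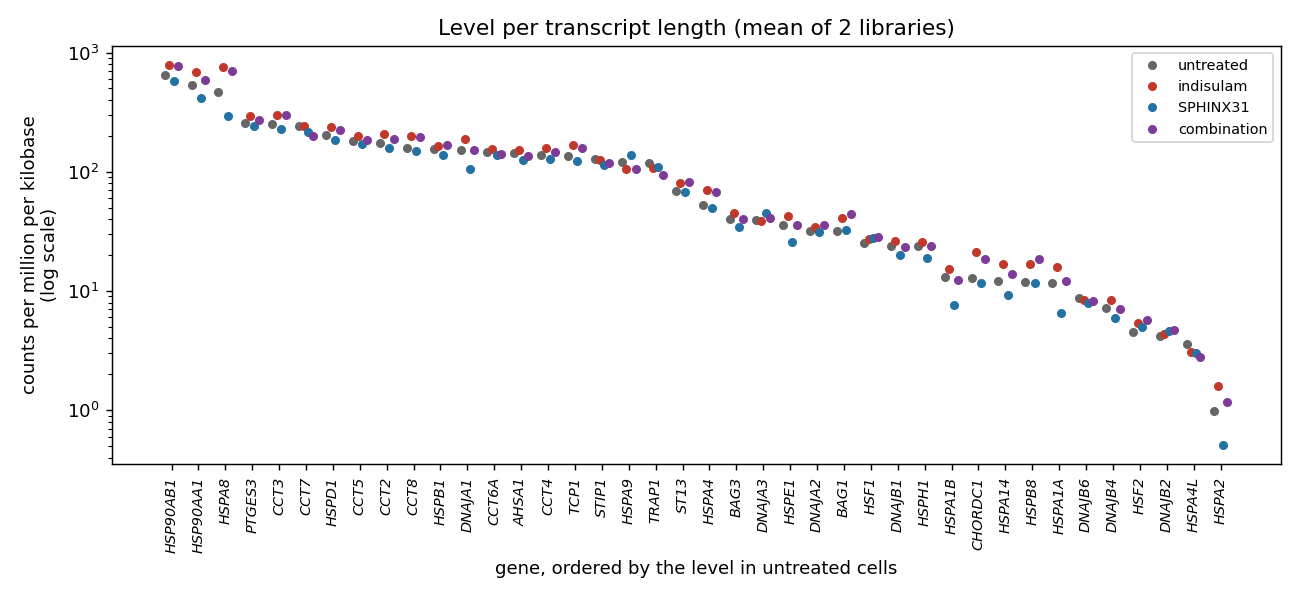
Level of each of the 40 genes in CPM per kb of transcript (vertical axis, log scale), ordered along the horizontal axis by the level in untreated cells; each point is the mean of 2 libraries of a group. HSP90AB1, HSP90AA1 and HSPA8 lead, HSPA2 is lowest, and SPHINX31 points lie under the other groups for the HSP70 genes HSPA8, HSPA1A, HSPA1B and HSPA2.

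Indisulam raised most of these genes. Against untreated cells, 28 of the 40 were called, 25 higher and 3 lower, where 43.7% of all tested genes were called, 20.1% higher and 23.5% lower. The median log2 fold change of the 40 was 0.21, against -0.0041 for all genes. In size, regardless of sign, the median change was 0.22 in the 40 genes and 0.26 in all genes, so the 40 did not move farther than other genes. The largest rises were in CHORDC1, HSPA8, HSPA2 and HSPB8, at 1.65, 1.63, 1.59 and 1.43-fold. The 3 lower genes were HSPA4L, HSPA9 and TRAP1. The mitochondrial genes went both ways, with HSPD1 and HSPE1 higher, HSPA9 and TRAP1 lower and DNAJA3 not called. Of the 28 calls, 19 held with each library left out in turn, all of them rises.

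With SPHINX31 most of the called genes were lower. It gave 17 calls of 40, 2 higher and 15 lower, where 8.61% of all genes were called, 4.94% higher and 3.67% lower. The median of the 40 was -0.14, against -0.0064 for all genes. Regardless of sign, the median size of change was 0.15 in the 40 and 0.14 in all genes. HSPA2 fell to 0.52 of its untreated level, HSPA1A to 0.56, HSPA1B to 0.58 and HSPA8 to 0.63. The 2 genes called higher were HSPA9 and DNAJA3. The count of calls fell to 9 without untreated library 1, 7 without untreated library 2 and 8 without SPHINX31 library 1, and DNAJA1, HSPA1A, HSPA1B, HSPA2, HSPA8 and HSPE1 were called lower whichever library was left out. With libraries scaled to total counts alone, 11 genes were lower and 2 higher, and among all called genes 72.2% were higher, against 57.4% with TMM.

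With both compounds, 17 of 40 were called, 13 higher and 4 lower, against backgrounds of 50% of all genes in either direction, 23.8% higher and 26.3% lower. The share of the 40 called was below that of all genes, and so was the median size of change regardless of sign (0.15 against 0.30). The largest rises were in HSPB8, HSPA8 and CHORDC1, at 1.56, 1.50 and 1.45-fold, and the 4 lower genes were HSPA4L, TRAP1, CCT7 and HSPA9. Of the 17 calls, those on DNAJA2, HSF2, HSPA14 and HSPA9 ended when single libraries were left out. The 3 comparisons against untreated cells share the untreated libraries, so their calls are set side by side without a test of their agreement. By those calls, 10 genes were higher with indisulam and with the combination and not called with SPHINX31 (BAG1, CCT3, CCT8, CHORDC1, HSF2, HSP90AB1, HSPA4, HSPB8, ST13 and TCP1). Another 9 were higher with indisulam, lower with SPHINX31 and not called with the combination (BAG3, DNAJA1, DNAJB1, DNAJB4, HSP90AA1, HSPA1A, HSPA1B, HSPA2 and HSPE1). Of these 9, DNAJA1, HSPA1A and HSPA2 kept both the indisulam and the SPHINX31 call whichever library was left out, and the others did not. In the order indisulam, SPHINX31 and combination, HSPA8 and HSPA14 were higher, lower and higher. HSPA9 was lower, higher and lower, and HSPA4L was lower in all 3. CCT5, CCT6A, DNAJB2, DNAJB6, HSF1 and HSPB1 were called in none. The share of all genes with each of these patterns was not counted.

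**Figure D2:**
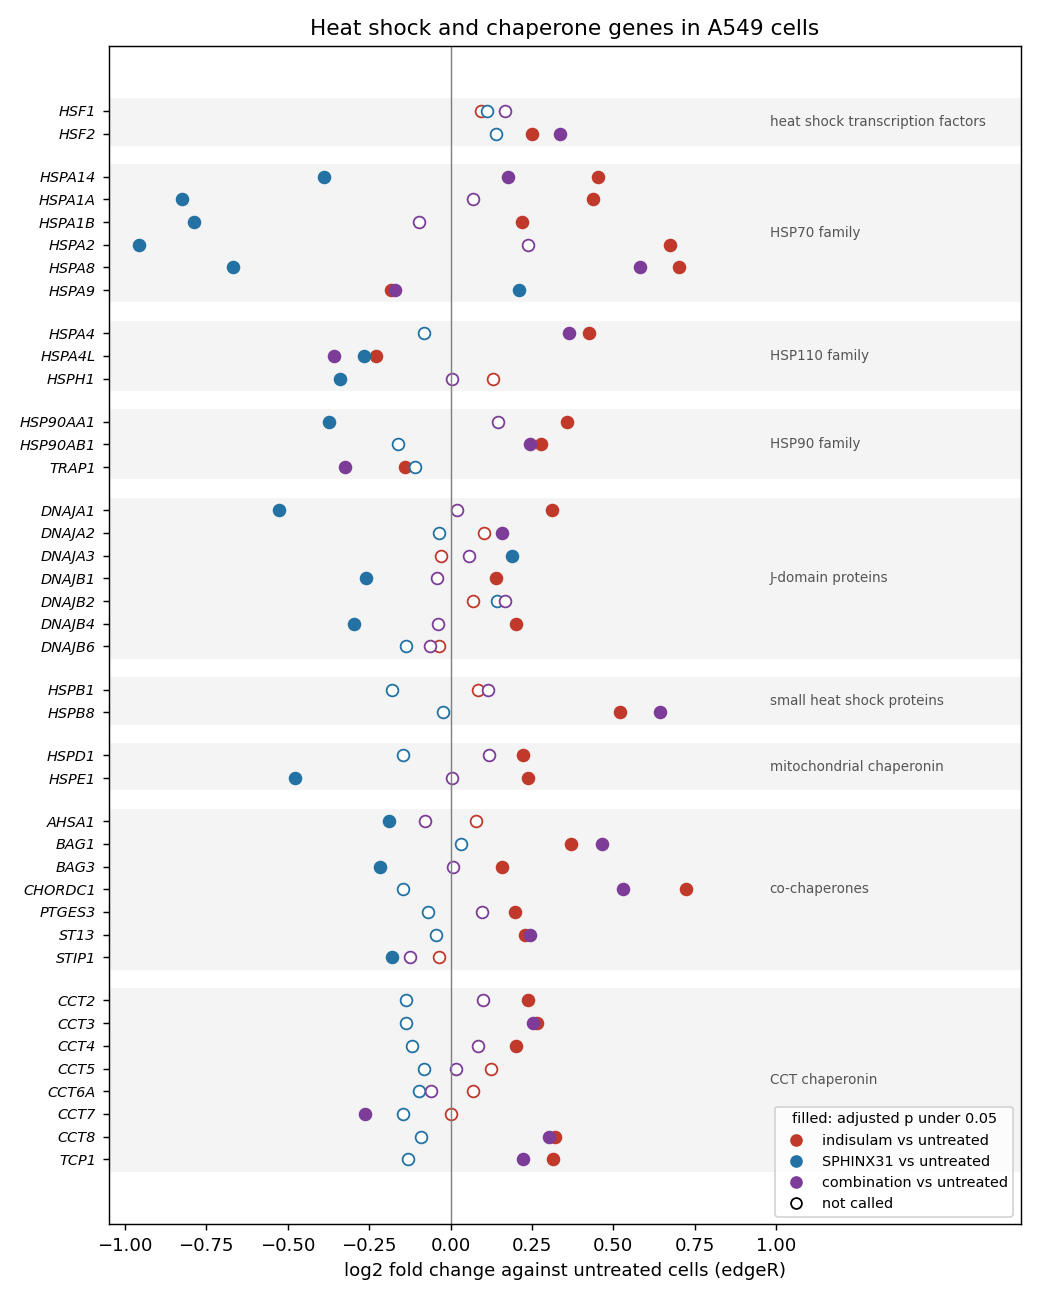
Log2 fold change of each of the 40 genes against untreated cells (horizontal axis), grouped by role (vertical axis), for indisulam, SPHINX31 and the combination; filled points were called at an adjusted p under 0.05. Indisulam points lie mostly right of 0 and SPHINX31 points mostly left, farthest left in the HSP70 family.

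Neither heat shock factor was called lower in any group. HSF1, the main factor of the heat shock response (ENSG00000185122, chr8:144291591-144314720), had 91.3 and 84.7 CPM in untreated cells, 85.7 and 102 with indisulam, 99.97 and 90.3 with SPHINX31, and 99.4 and 98.3 with the combination. The indisulam and SPHINX31 libraries overlapped the untreated, while both combination libraries lay above both untreated libraries. Its log2 fold changes against untreated cells were 0.09, 0.11 and 0.17 in that order of treatments, with none called (edgeR adjusted p = 0.345, 0.403 and 0.0848). HSF2, which can form trimers with HSF1 (ENSG00000025156, chr6:122399551-122433119), had 11.99 and 12.06 CPM in untreated cells, 13.9 and 14.7 with indisulam, 13.1 and 13.4 with SPHINX31, and 14.1 and 16.3 with the combination. All treated libraries lay above both untreated libraries, and it was called with indisulam, at 0.25 (SE 0.08, edgeR adjusted p = 0.027), and with the combination, at 0.34 (SE 0.08, edgeR adjusted p = 0.00401), but not with SPHINX31, at 0.14 (SE 0.08, edgeR adjusted p = 0.336). The indisulam call ended without either untreated library or indisulam library 2, and the combination call without combination library 2 (log2 fold change 0.22, edgeR adjusted p = 0.0577).

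Of the 9 genes with a called log2 fold change of 0.5 or more in size in any comparison, 5 were in the HSP70 family. The share of all genes that reached this size was not counted. The 5 HSP70 genes include both HSPA1A and HSPA1B, which can share reads. Of the family's 6 genes, indisulam gave 5 higher and 1 lower, SPHINX31 1 higher and 5 lower, and the combination 2 higher and 1 lower. Over all genes these shares were 20.1% and 23.5%, 4.94% and 3.67%, and 23.8% and 26.3%. HSPA8, the constitutive cytosolic HSP70 that also strips clathrin from vesicles (ENSG00000109971, chr11:123057489-123063230), had 1109 and 1053 CPM in untreated cells, 1766 and 1753 with indisulam, 619 and 742 with SPHINX31, and 1679 and 1554 with the combination. Its indisulam and combination libraries were all above the untreated libraries and its SPHINX31 libraries both below, with no overlap between these 3 levels. Log2 fold changes were 0.70 (SE 0.07, edgeR adjusted p = 4.35e-06) for indisulam, -0.67 (SE 0.07, edgeR adjusted p = 0.000107) for SPHINX31 and 0.58 (SE 0.07, edgeR adjusted p = 1.63e-05) for the combination. HSPA8 was called in the same direction in all 3 whichever library was left out.

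HSPA1A and HSPA1B encode the stress-inducible HSP70 from adjacent genes with 1 exon each (ENSG00000204389, chr6:31815543-31817946 and ENSG00000204388, chr6:31827738-31830254). Reads that match both equally cannot be assigned to either, so the pair was also fitted as a sum. The sum does not recover reads that were left unassigned. HSPA1A had 29.0 and 26.8 CPM in untreated cells, 36.5 and 39.1 with indisulam, 15.5 and 16.0 with SPHINX31, and 32.8 and 25.8 with the combination. HSPA1B had 34.6 and 31.4 CPM in untreated cells, 36.3 and 40.6 with indisulam, 19.7 and 18.6 with SPHINX31, and 33.1 and 28.6 with the combination. The sum had 63.6 and 58.1 CPM in untreated cells, 72.8 and 79.7 with indisulam, 35.2 and 34.6 with SPHINX31, and 65.9 and 54.4 with the combination. In each of the 3, both SPHINX31 libraries were the lowest of all 8, both indisulam libraries the highest, and the combination libraries overlapped the untreated. The sum changed by 0.32 (SE 0.08, edgeR adjusted p = 0.00551) with indisulam, -0.80 (SE 0.08, edgeR adjusted p = 8.59e-05) with SPHINX31 and -0.02 (SE 0.08, edgeR adjusted p = 0.877) with the combination. Without untreated library 2 the indisulam call on the sum ended (log2 fold change 0.26, edgeR adjusted p = 0.0602), as did that on HSPA1B alone without untreated library 2 or indisulam library 2.

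HSPA2 (ENSG00000126803, chr14:64535905-64546173) is another HSP70 gene, with 1 exon in its canonical transcript but longer transcripts annotated. It had 5.76 and 4.95 CPM in untreated cells, 7.74 and 9.38 with indisulam, 2.60 and 2.91 with SPHINX31, and 6.96 and 5.68 with the combination. Its 2 SPHINX31 libraries were the lowest and its 2 indisulam libraries the highest. Log2 fold changes were 0.67 (SE 0.13, edgeR adjusted p = 0.000852) with indisulam, -0.96 (SE 0.15, edgeR adjusted p = 0.00146) with SPHINX31 and 0.24 (SE 0.13, edgeR adjusted p = 0.147) with the combination. An antisense gene, HSPA2-AS1, overlaps it, and the strand setting of the counting was not given in the sources used here. HSPA14, a divergent HSP70 found with ribosomes (ENSG00000187522, chr10:14838306-14871741), had 21.0 and 22.0 CPM in untreated cells, 30.0 and 29.0 with indisulam, 15.5 and 17.3 with SPHINX31, and 24.6 and 24.1 with the combination. The 4 groups did not overlap, and their order was indisulam, combination, untreated and SPHINX31. HSPA14 overlaps MSANTD7 on the same strand and CDNF on the other, so its counts are uncertain too. Log2 fold changes were 0.45 (SE 0.07, edgeR adjusted p = 0.00013), -0.39 (SE 0.07, edgeR adjusted p = 0.00421) and 0.18 (SE 0.07, edgeR adjusted p = 0.0463) for indisulam, SPHINX31 and the combination. The combination call on HSPA14 ended without either untreated library, without either combination library, with DESeq2 and with genes kept from 1 count, and the SPHINX31 call without untreated library 2 (log2 fold change -0.36, edgeR adjusted p = 0.0542).

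HSPA9, the mitochondrial HSP70 (mortalin), was the exception of the family. It had 878 and 909.9 CPM in untreated cells, 800.5 and 773 with indisulam, 1041 and 1028 with SPHINX31, and 755 and 834 with the combination. Both SPHINX31 libraries were the highest, and log2 fold changes were -0.18 (SE 0.05, edgeR adjusted p = 0.012), 0.21 (SE 0.05, edgeR adjusted p = 0.024) and -0.17 (SE 0.05, edgeR adjusted p = 0.0159) for indisulam, SPHINX31 and the combination. The indisulam call ended without untreated library 2 or indisulam library 2, and the SPHINX31 call without either untreated library or SPHINX31 library 1. The combination call ended without untreated library 2 or combination library 1.

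**Figure D3:**
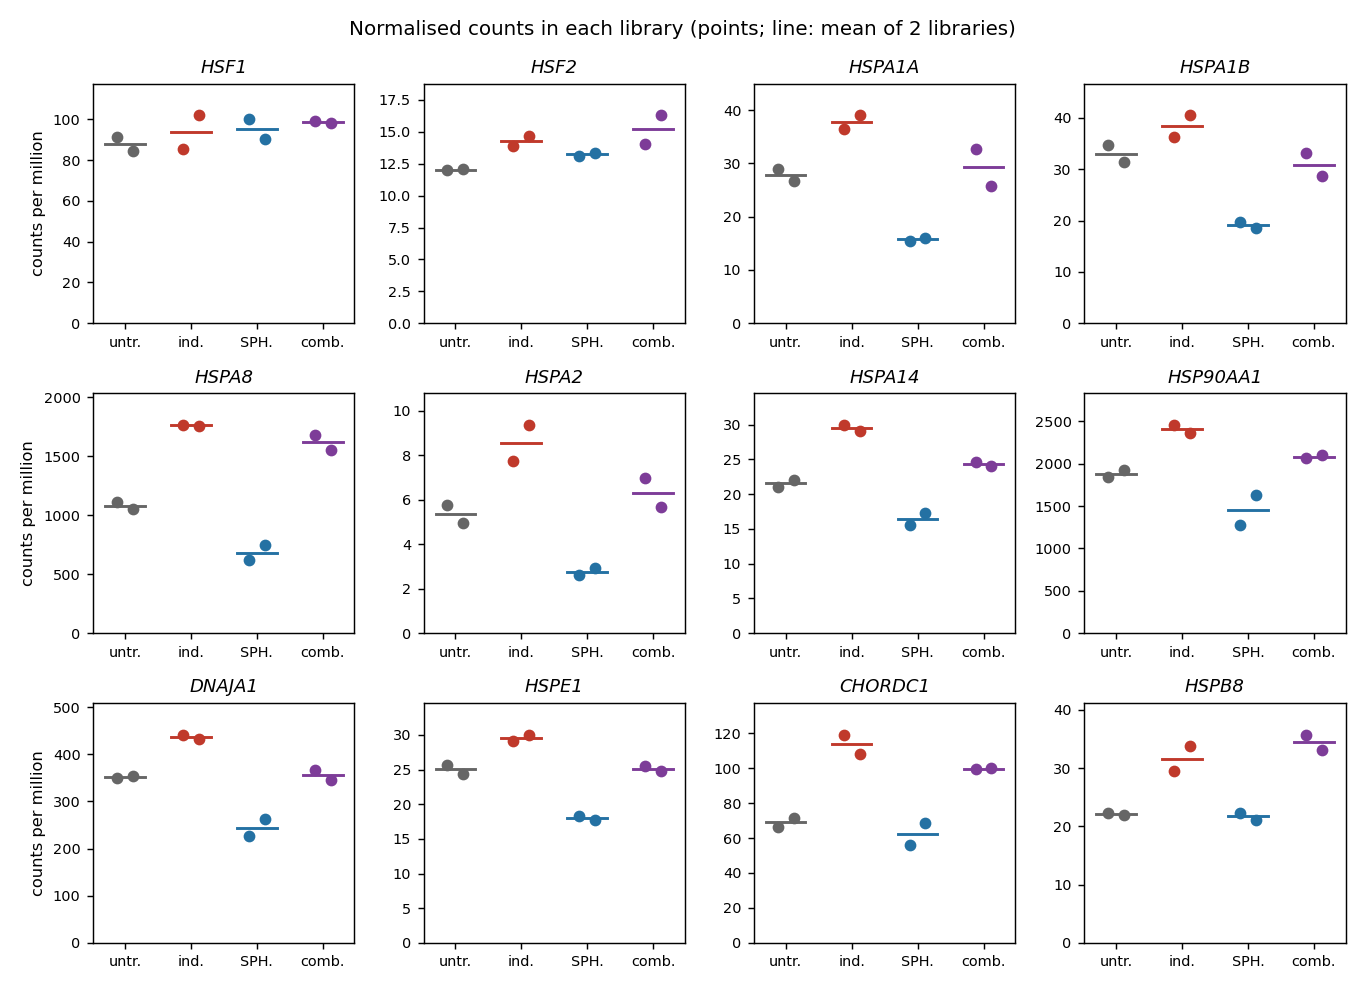
CPM after TMM normalisation (vertical axis, from 0) in each library of the 4 groups (horizontal axis: untreated, indisulam, SPHINX31, combination) for 12 genes; points are libraries and lines the mean of 2. HSPA8, HSPA1A, HSPA1B, HSPA2, DNAJA1 and HSPE1 are lowest with SPHINX31, CHORDC1 and HSPB8 are raised with indisulam and the combination, and HSF1 with indisulam or SPHINX31 overlaps the untreated libraries while its combination libraries lie above them.

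The nucleotide exchange factors of the HSP110 family did not move together. HSPA4 rose with indisulam (log2 fold change 0.42) and the combination (0.36) and was not called with SPHINX31 (-0.08). HSPA4L, its close relative, was lower with all 3 treatments, at -0.23, -0.26 and -0.36, and its calls with the single compounds ended without 1 of several libraries, untreated library 2 among them. HSPH1, the stress-inducible HSP110, was lower with SPHINX31 alone, at -0.34 (SE 0.07, edgeR adjusted p = 0.0128), and that call ended without untreated library 2 or SPHINX31 library 1.

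Among HSP90 genes, HSP90AA1, the more stress-responsive cytosolic form (ENSG00000080824, chr14:102080742-102139699), had 1840.0 and 1927 CPM in untreated cells, 2462 and 2360.0 with indisulam, 1274 and 1633 with SPHINX31, and 2066 and 2101 with the combination. Both indisulam libraries were above and both SPHINX31 libraries below all untreated libraries. Its log2 fold changes were 0.36 (SE 0.08, edgeR adjusted p = 0.00351) with indisulam, -0.37 (SE 0.08, edgeR adjusted p = 0.0137) with SPHINX31 and 0.15 (SE 0.08, edgeR adjusted p = 0.161) with the combination. The SPHINX31 libraries lay far apart, and the call ended without the first of them (log2 fold change -0.20, edgeR adjusted p = 0.0507) or without untreated library 2 (-0.34, edgeR adjusted p = 0.0877). HSP90AB1, the constitutive form, rose with indisulam (0.28) and the combination (0.24) and was not called with SPHINX31 (-0.16, edgeR adjusted p = 0.0525). TRAP1, the mitochondrial HSP90, was lower with indisulam (-0.14) and the combination (-0.32), and the indisulam call ended without either untreated library or indisulam library 1.

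J-domain proteins deliver clients to HSP70 and start its ATP hydrolysis. Of 7 genes, 3 were higher with indisulam, 3 lower and 1 higher with SPHINX31, and 1 higher with the combination. Of all genes, 20.1% were higher with indisulam, 3.67% lower and 4.94% higher with SPHINX31, and 23.8% higher with the combination. DNAJA1 (ENSG00000086061, chr9:33025273-33039907) had 350.2 and 353 CPM in untreated cells, 442 and 431 with indisulam, 227 and 262 with SPHINX31, and 367 and 346 with the combination. The SPHINX31 libraries were the lowest and the indisulam libraries the highest, and the combination libraries lay on either side of the untreated. Its log2 fold changes were 0.31 (SE 0.06, edgeR adjusted p = 0.00115), -0.53 (SE 0.06, edgeR adjusted p = 0.000223) and 0.02 (SE 0.06, edgeR adjusted p = 0.823) for indisulam, SPHINX31 and the combination. DNAJB1, the inducible partner of HSPA1A, and DNAJB4 had the same signs at smaller size, at 0.14 and 0.20 with indisulam and -0.26 and -0.30 with SPHINX31. Their indisulam calls ended when any 1 untreated or indisulam library was left out. The SPHINX31 call on DNAJB4 ended without either untreated library or SPHINX31 library 1, and that on DNAJB1 without untreated library 1. DNAJA3, the mitochondrial J-domain protein, was higher with SPHINX31 (0.19), a call that ended without either untreated library or SPHINX31 library 1. The gene higher with the combination was DNAJA2 (0.16). That call ended without untreated library 1 or combination library 2, with a log2 fold change of 0.13 in either case.

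Small heat shock proteins hold unfolded proteins without using ATP. HSPB8, which works with BAG3 in chaperone-assisted autophagy (ENSG00000152137, chr12:119171555-119224855), had 22.2 and 21.9 CPM in untreated cells, 29.6 and 33.7 with indisulam, 22.3 and 21.1 with SPHINX31, and 35.8 and 33.1 with the combination. Its indisulam and combination libraries were all above the other 4, and the SPHINX31 libraries overlapped the untreated. Log2 fold changes were 0.52 (SE 0.07, edgeR adjusted p = 8.2e-05) with indisulam, -0.02 (SE 0.07, edgeR adjusted p = 0.893) with SPHINX31 and 0.64 (SE 0.07, edgeR adjusted p = 8.63e-06) with the combination. HSPB1 (HSP27) was not called against untreated cells, with log2 fold changes of 0.09, -0.18 and 0.11.

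Mitochondrial HSPD1 (HSP60) and HSPE1 (HSP10) form 1 chaperonin and are transcribed from a shared bidirectional promoter region. HSPE1 (ENSG00000115541, chr2:197500140-197503449) had 25.7 and 24.4 CPM in untreated cells, 29.1 and 30.1 with indisulam, 18.3 and 17.7 with SPHINX31, and 25.4 and 24.8 with the combination. Both SPHINX31 libraries were the lowest and both indisulam libraries the highest, with log2 fold changes of 0.24 (SE 0.06, edgeR adjusted p = 0.00657), -0.48 (SE 0.06, edgeR adjusted p = 0.000546) and 0.01 (SE 0.06, edgeR adjusted p = 0.955) for indisulam, SPHINX31 and the combination. HSPE1 lies inside the readthrough gene HSPE1-MOB4 on the same strand, so its counts are uncertain, and its indisulam call ended without untreated library 2 (log2 fold change 0.20, edgeR adjusted p = 0.0815). HSPD1 rose with indisulam (0.22) and was not called with SPHINX31 (-0.15) or the combination (0.12).

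Of 7 co-chaperones, 5 were higher with indisulam, 3 lower with SPHINX31 and 3 higher with the combination. Of all genes, 20.1%, 3.67% and 23.8% were. The indisulam call on BAG3 ended without untreated library 2 or indisulam library 2. CHORDC1 (CHP-1), a zinc-binding partner of HSP90 (ENSG00000110172, chr11:90200429-90223077), had 66.3 and 71.6 CPM in untreated cells, 119 and 108 with indisulam, 55.8 and 68.7 with SPHINX31, and 99.2 and 99.95 with the combination. Its indisulam and combination libraries were all above the other 4, while its SPHINX31 libraries overlapped the untreated. Log2 fold changes were 0.72 (SE 0.08, edgeR adjusted p = 1.19e-05) with indisulam, -0.15 (SE 0.08, edgeR adjusted p = 0.305) with SPHINX31 and 0.53 (SE 0.08, edgeR adjusted p = 0.00013) with the combination. BAG1, an exchange factor that links HSP70 to the proteasome, and ST13, which steadies HSP70 in its ADP form, rose with indisulam (0.37 and 0.23) and the combination (0.47 and 0.24). PTGES3 (p23) rose with indisulam (0.20). BAG3, AHSA1 and STIP1 were lower with SPHINX31, at -0.22, -0.19 and -0.18, and each of these calls ended without 1 of several libraries, either untreated library among them.

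The CCT subunits moved over a narrow range. TCP1, CCT2, CCT3, CCT4 and CCT8 rose with indisulam, by between 0.20 and 0.32 on the log2 scale, while CCT5, CCT6A and CCT7 were not called. Of the 8 subunits 0 were called with SPHINX31, where 8.61% of all genes were. Their log2 fold changes with SPHINX31 lay between -0.14 and -0.08 (edgeR). At an unadjusted p under 0.05 there were 5 by edgeR, and DESeq2 called 0 of the 8, with 5 at an unadjusted p under 0.05. With the combination, TCP1, CCT3 and CCT8 were higher and CCT7 was lower. CCT7 had 479.9 and 496 CPM in untreated cells, 487 and 491 with indisulam, 429.9 and 453 with SPHINX31, and 401 and 413 with the combination, with both combination libraries below all others, and changed by -0.26 (SE 0.05, edgeR adjusted p = 0.000427) with the combination and 0.00 (SE 0.05, edgeR adjusted p = 0.974) with indisulam.

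Read by a list of 10 classic heat-inducible targets of HSF1 (HSPA1A, HSPA1B, DNAJB1, HSPH1, HSP90AA1, HSPA8, HSPB1, HSPD1, HSPE1 and BAG3), indisulam gave 8 higher (20.1% of all genes were), SPHINX31 8 lower (3.67% of all genes) and the combination 1 higher, HSPA8 (23.8% of all genes), with median log2 fold changes of 0.22, -0.36 and 0.04. The 2 not called with SPHINX31 were HSPB1 and HSPD1. The list was drawn up with earlier results of these data known. It counts HSPA1A and HSPA1B separately although they can share reads, and it holds HSPA8, described above as constitutive. Of the 8 indisulam calls, 4 held whichever library was left out (HSP90AA1, HSPA1A, HSPA8 and HSPD1), with 4 left without untreated library 2 and 5 without indisulam library 2. Of the 8 SPHINX31 calls, 4 held likewise (HSPA1A, HSPA1B, HSPA8 and HSPE1), with 5 left without untreated library 2 or SPHINX31 library 1. By sequence, the 7 genes with the 3-unit motif had a median log2 fold change of 0.31 with indisulam, 6 of them called higher, against 0.20 with 17 of 29 called higher among the genes without it. With SPHINX31 the medians were -0.16 and -0.14, with 3 of 7 and 11 of 29 called lower. For the 2-unit motif GAANNTTC the indisulam medians were 0.295 in 14 genes with it and 0.144 in 22 without. For the other 2-unit arrangement, TTCNNGAA, they were 0.212 in 12 genes and 0.209 in 24, and for CCAAT, which is no heat shock element, 0.258 in 14 and 0.179 in 22. These groups share genes, and the differences were not tested. HSPA2, which fell most with SPHINX31, was without the 3-unit motif and either 2-unit motif in this window.

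The number of exons was compared with the changes because both compounds act on splicing factors. Over the 40 genes, Spearman's rho between exons of the canonical transcript and log2 fold change was -0.26 with indisulam, 0.34 with SPHINX31 and -0.076 with the combination. These are descriptions over genes that share the same libraries. The 3 genes with 1 exon in the canonical transcript, HSPA1A, HSPA1B and HSPA2, were also the 3 that fell most with SPHINX31. Over the same genes, rho with GC content was -0.23, 0.061 and -0.12.

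The 2 further comparisons set the combination against cells given 1 compound alone. The methods of the study list the combination as 1 treatment and describe no order of addition. The combination against indisulam gave 8 calls of 40, 0 higher and 8 lower. Of all genes 7.5% were called, 3.17% higher and 4.32% lower. The count of higher genes was also 0 at an unadjusted p under 0.05 in edgeR and 0 in DESeq2. The 8 were HSPA1A (-0.37), HSPA1B (-0.32), DNAJA1 (-0.29), HSPA14 (-0.28), CCT7 (-0.27), HSPE1 (-0.23), TRAP1 (-0.18) and DNAJB1 (-0.18). This comparison shares no library with SPHINX31 against untreated, and 6 of its 8 genes were also lower there, which is 75% of the 8 and 40% of the 15. Over all tested genes the lower calls shared were 39.7% and 46.7% of those of the same 2 comparisons. Of the 40 genes, 36 had the same sign in both, against 66.9% of all tested genes. The 6 shared genes all lost their call against indisulam without combination library 2. Their log2 fold changes were then between -0.27 (HSPA14) and -0.18 (DNAJB1). HSPA8 and HSPA2 were called in the absence of indisulam and not in its presence, at -0.12 (SE 0.07, edgeR adjusted p = 0.346) and -0.43 (SE 0.13, edgeR adjusted p = 0.0544). The count depended on single libraries: it was 5 without untreated library 2 or indisulam library 1, 4 without combination library 1, 3 without indisulam library 2 and 1 without combination library 2, CCT7. With libraries scaled to total counts alone it was 2, and among all called genes 65.4% were higher, against 42.3% with TMM.

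The combination against SPHINX31 gave 30 calls, 27 higher and 3 lower. Of all genes 49.9% were called, 23.4% higher and 26.5% lower. The median of the 40 was 0.26. HSPA8 was 2.38-fold higher, at 1.25 (SE 0.07, edgeR adjusted p = 1.94e-08), HSPA2 2.29-fold, at 1.20 (SE 0.14, edgeR adjusted p = 1.56e-05), and the sum of HSPA1A and HSPA1B 1.72-fold, at 0.79 (SE 0.08, edgeR adjusted p = 5e-06). All 10 heat-inducible targets were called higher. This comparison shares no library with indisulam against untreated, and 24 genes were higher in both, which is 96% of the 25 and 88.9% of the 27, against 81.1% and 69.8% over all tested genes. The sign was the same in 37 of 40, against 84.4% of all tested genes. HSPA9 and TRAP1 were lower in both. Of the 30 calls, 26 held with each library left out in turn.

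**Figure D4:**
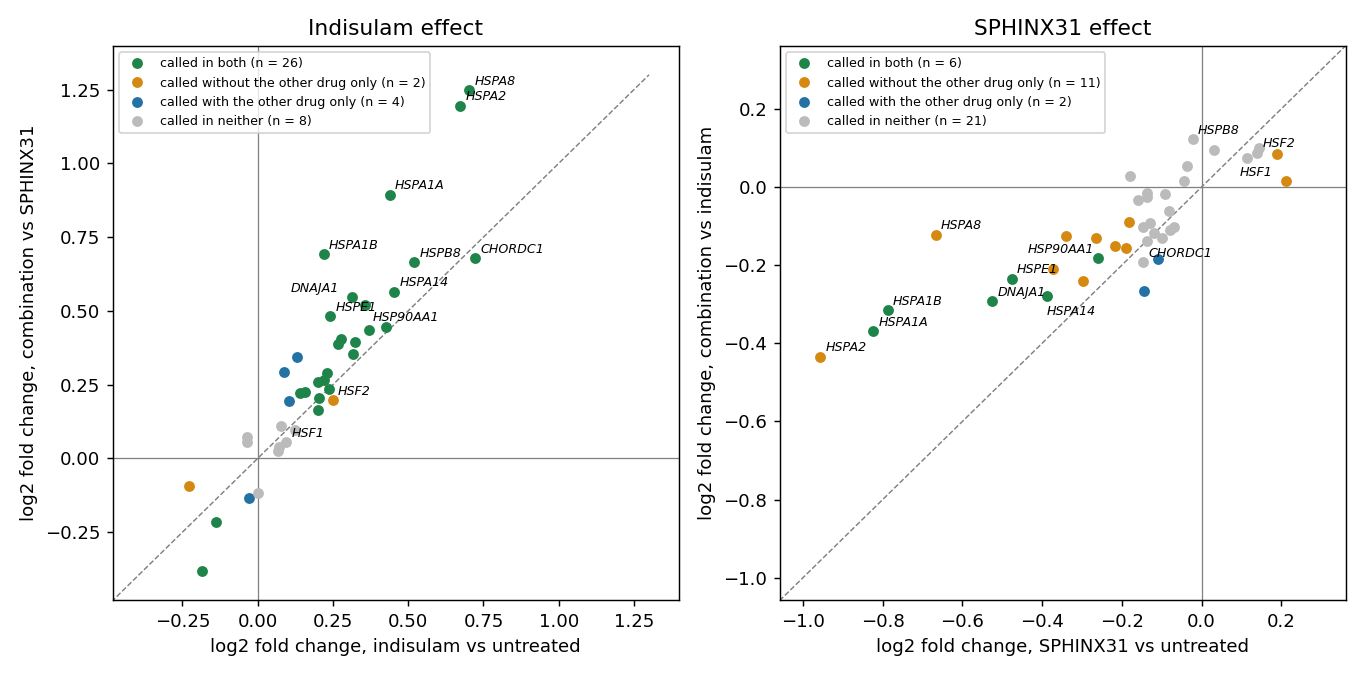
Log2 fold change of the 40 genes for a compound alone (horizontal axes) and in cells that also had the other compound (vertical axes), for indisulam (left) and SPHINX31 (right); colours give where a gene was called and the dashed line is equality. Most indisulam points lie in the upper right, with HSPA8 at 0.70 and 1.25, and for SPHINX31 the HSP70 points lie nearer to 0 on the vertical than on the horizontal axis.

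Whether the effect of SPHINX31 differed with indisulam was tested by the interaction term, and 0 of 40 genes were called, where 0% of all genes were. At an unadjusted p under 0.05 there were 7 of the 40 and 1584 of all genes, or 8.49%. The largest terms were in HSPA8, at 0.54 (SE 0.10, edgeR adjusted p = 0.179), HSPA2, at 0.52 (SE 0.19, edgeR adjusted p = 0.508), HSPA1B, at 0.47 (SE 0.12, edgeR adjusted p = 0.347), and HSPA1A, at 0.45 (SE 0.13, edgeR adjusted p = 0.422), all positive, meaning that these genes were higher with both compounds than the sum of the single log2 changes. DESeq2 called 1 of the 40, HSPA8, and 32 of all genes. With genes kept from 1 count, edgeR called HSPA1A, HSPA1B and HSPA8 of 94 genes in all, and without SPHINX31 library 2 it called HSPA8. A difference between the effects with and without indisulam was therefore not established here by the test used throughout, nor was it shown to be absent.

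For comparison, 73 further chaperone and co-chaperone genes were listed, of which 70 were tested. With indisulam 25 were higher and 14 lower, where 20.1% and 23.5% of all tested genes were. With SPHINX31 there were 3 and 5, against 4.94% and 3.67% of all genes. With the combination there were 25 and 16, against 23.8% and 26.3%. Median log2 fold changes of the 70 genes were 0.069, -0.011 and 0.034. For each of 5 lists the called gene with the largest rise and that with the largest fall against untreated cells are given for each treatment. Of the HSP90 co-chaperones, PPID (cyclophilin 40) rose with indisulam (0.60) and the combination (0.55) and TOMM34 fell (-0.64 and -0.94), while with SPHINX31 CDC37L1 rose (0.23) and FKBP4, which serves steroid receptors, fell (-0.30). Of the further HSP70, HSP110 and exchange factors, GRPEL2, a mitochondrial exchange factor, rose with SPHINX31 (0.27) and the combination (0.27), and HSPA13 fell with indisulam (-0.21). Of the J-domain proteins, DNAJC2, a ribosome-associated factor, rose with indisulam (0.61) and the combination (0.63), GAK fell with indisulam (-0.54), DNAJB5 fell with SPHINX31 (-0.80) and DNAJC17 fell with the combination (-0.57). Among prefoldin and CCT cofactors, PDCL3 rose with indisulam (0.50) and the combination (0.42), PFDN2, a prefoldin subunit, rose with SPHINX31 (0.26), and TBCD, which assembles tubulin, fell with all 3 treatments (-0.61, -0.32 and -0.95). Of small heat shock proteins and HSF1 regulators, HSF4, a heat shock factor of the lens, rose with indisulam (0.54) and fell with SPHINX31 (-0.52), and with the combination CRYAB rose (0.46) and IFT25 fell (-0.25).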

How the data were processed

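Gene counts were analysed for 8 libraries of A549 cells. The deposited values are raw counts per Ensembl gene, 1 library each. Per the labels the authors used a stranded poly(A)+ library, and the submitters' processing notes name HISAT2 2.2.1, HTSeq and GRCh38. The strand setting, annotation release and counting mode are not given in the sources used here. Overlaps with other annotated genes were not limited to HSPA2, HSPA14 and HSPE1. HSPB8 and DNAJB4, among others, overlap a gene on the same strand. Between 83.0% and 86.0% of reads in a library were assigned to genes, and unassigned reads were left out of library sizes. Symbols came from GENCODE release 44, which matched 60370 of 60624 identifiers.

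Counts were fitted with edgeR 4.0.16 (R 4.3.3): TMM, filterByExpr by group, 18661 genes, all 8 libraries with group as the only term (4 residual degrees of freedom), the quasi-likelihood test and Benjamini-Hochberg adjustment, threshold 0.05. DESeq2 1.42.0 was an alternative, as were other scalings, filters, a replicate block, a GC correction and each library left out. The fitting code was tested on simulated data. Levels per kb used the longest transcript. Duplicates of a group differed by more than sampling noise, so each counted as 1 library.

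The members and lists were chosen with earlier results of these data known. Values are given in each library for members called in a comparison with a log2 fold change whose size reached 0.5, for HSF1, HSF2 and the sum of HSPA1A and HSPA1B, and for the next largest up to 12; values of HSPA9 and CCT7 were added after they were seen. Of the further chaperone genes, the called gene with the largest rise and fall in each list was taken from those with a mean log2 CPM of at least 1. Promoters were from RefSeq (GRCh38.p14), and correlations and figures were made with Python 3.11.15, scipy 1.17.1 and matplotlib 3.10.9.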

Additional observations from a re-analysis of the deposited data

How the results depend on the processing

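Of 100 member results called in the 5 comparisons, none changed direction under any setting tried, and the number that lost their call was 1 with size factors by relative log expression, 12 with total counts alone, 3 with DESeq2, 5 with genes kept from 1 count, 0 with at least 10 counts in every library, 5 with only the groups compared, 1 with a GC correction and 2 to 25 with a library left out. The most, 25, were lost without untreated library 2. With a library left out, members called ranged from 19 to 29 for indisulam against untreated, 7 to 24 for SPHINX31, 15 to 21 for the combination, 1 to 11 for the combination against indisulam, 28 to 30 for the combination against SPHINX31 and 0 to 1 for the interaction. Total counts alone left 2 calls for the combination against indisulam. For the interaction DESeq2 and the GC correction each called 1 member and genes kept from 1 count gave 3. The cause of these shifts was not tested.

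The sum of HSPA1A and HSPA1B, not called with the combination, had a log2 fold change of -0.02 that turned to 0.036 with total counts alone and 0.069 with HSPA1A alone, and ranged from -0.15 to 0.11 with a library left out. Its ranges were 0.26 to 0.40 for indisulam and -0.48 to -0.22 for the combination against indisulam, where the call ended without indisulam library 2 or combination library 2.

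Replicate numbers were not stated to mark a shared culture or day. Deviations of same-numbered libraries correlated at -0.57 between untreated and indisulam and at 0.45 between untreated and SPHINX31 over 9980 genes, so the numbers were not taken as pairs. With the replicate block, members called were 27 for indisulam, 14 for SPHINX31, 16 for the combination, 6 for the combination against indisulam, 30 for the combination against SPHINX31 and 0 for the interaction. With indisulam numbers exchanged in the block, a setting chosen after seeing the data, the combination against indisulam gave 14 calls and the interaction 1, and exchanging those of the combination too gave 13 and 1. Counts this deep leave small differences within reach, but with 2 technical duplicates a group the spread between cultures is unknown.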
